A study of Arabidopsis thaliana with 3 samples.

Results

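The 8 genes described here encode regulators that decide when an Arabidopsis thaliana shoot stops making leaves and starts making flowers: the floral repressors FLC and SVP, the integrator SOC1, the meristem identity genes LFY and AP1, the bZIP factor gene FD, and the age-dependent factor genes SPL3 and SPL9. They were taken as the 8 listed TAIR10 loci, of 27444 protein-coding genes on the 5 nuclear chromosomes, and all 8 were located. Each was examined for islands, the regions of clustered reads called by the study, in lists made from chromatin pulled down with an antibody against green fluorescent protein (GFP). OX TZP seedlings overexpress TZP, a light-signalling protein with zinc fingers, while OX ZFHD10 seedlings overexpress ZFHD10, a zinc-finger homeodomain protein; Col-0 is the wild type. All seedlings were 7 days old and had grown in low blue light, and each genotype had 1 library, pulled down with the same anti-GFP antibody. Island lists of OX TZP and OX ZFHD10 were used, and none of Col-0 was used here. The promoter that drives each fusion and the number of independent lines are not given in the sources used here.

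FLC and SVP are MADS-domain proteins that hold back flowering by repressing, among others, SOC1 and FT. When this block is lifted, the mobile protein FT meets FD at the shoot apex and SOC1, LFY and AP1 are switched on. Ageing adds a second route, since microRNA miR156 falls as the plant grows and its targets, the SPL factors, accumulate and activate SOC1, LFY and AP1.

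The OX TZP list held 11675 nuclear islands with a median of 147 reads and a median density of 163 reads per kb of island, and the OX ZFHD10 list held 16122 with medians of 203 reads and 262 reads per kb. Densities were compared within a list only, because the depth of the whole libraries is unknown. With 1 library per line no difference was tested, and the 95% Poisson intervals given in brackets cover counting error only. A gene without an island is one where no enriched region was called, which is not a measure of no binding. In seedlings that mix many tissues, binding in fewer cells and less binding per cell cannot be told apart. An island was assigned to a gene when it overlapped the gene or the 1000 bp on either side by at least 1 bp.

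OX TZP islands were found at 3 of the 8 genes (37.5%), SVP, LFY and SPL3, where 47.2% of all protein-coding genes had one under the same rule. OX ZFHD10 islands were found at 6 of 8 (75.0%), FLC, SVP, SOC1, LFY, FD and SPL3, against 65.9% of all genes. All 3 genes with an OX TZP island also had an OX ZFHD10 island, and 36.7% of all genes had an island of each line. None of the 8 had an OX TZP island alone, as 10.5% of all genes did. At 2 of the 8, LFY and SPL3, islands of the lines overlapped each other, which held for 26.6% of all genes. FLC, SOC1 and FD had an OX ZFHD10 island alone, as did 29.2% of all genes, and AP1 and SPL9 had neither, as did 23.5%. Each of these shares lay within 1 gene, or 12.5 percentage points, of its background. Of the 8 genes, 7 are longer than the median protein-coding gene (2078 bp), and a longer gene gives an island more room to overlap it.

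**Figure D1:**
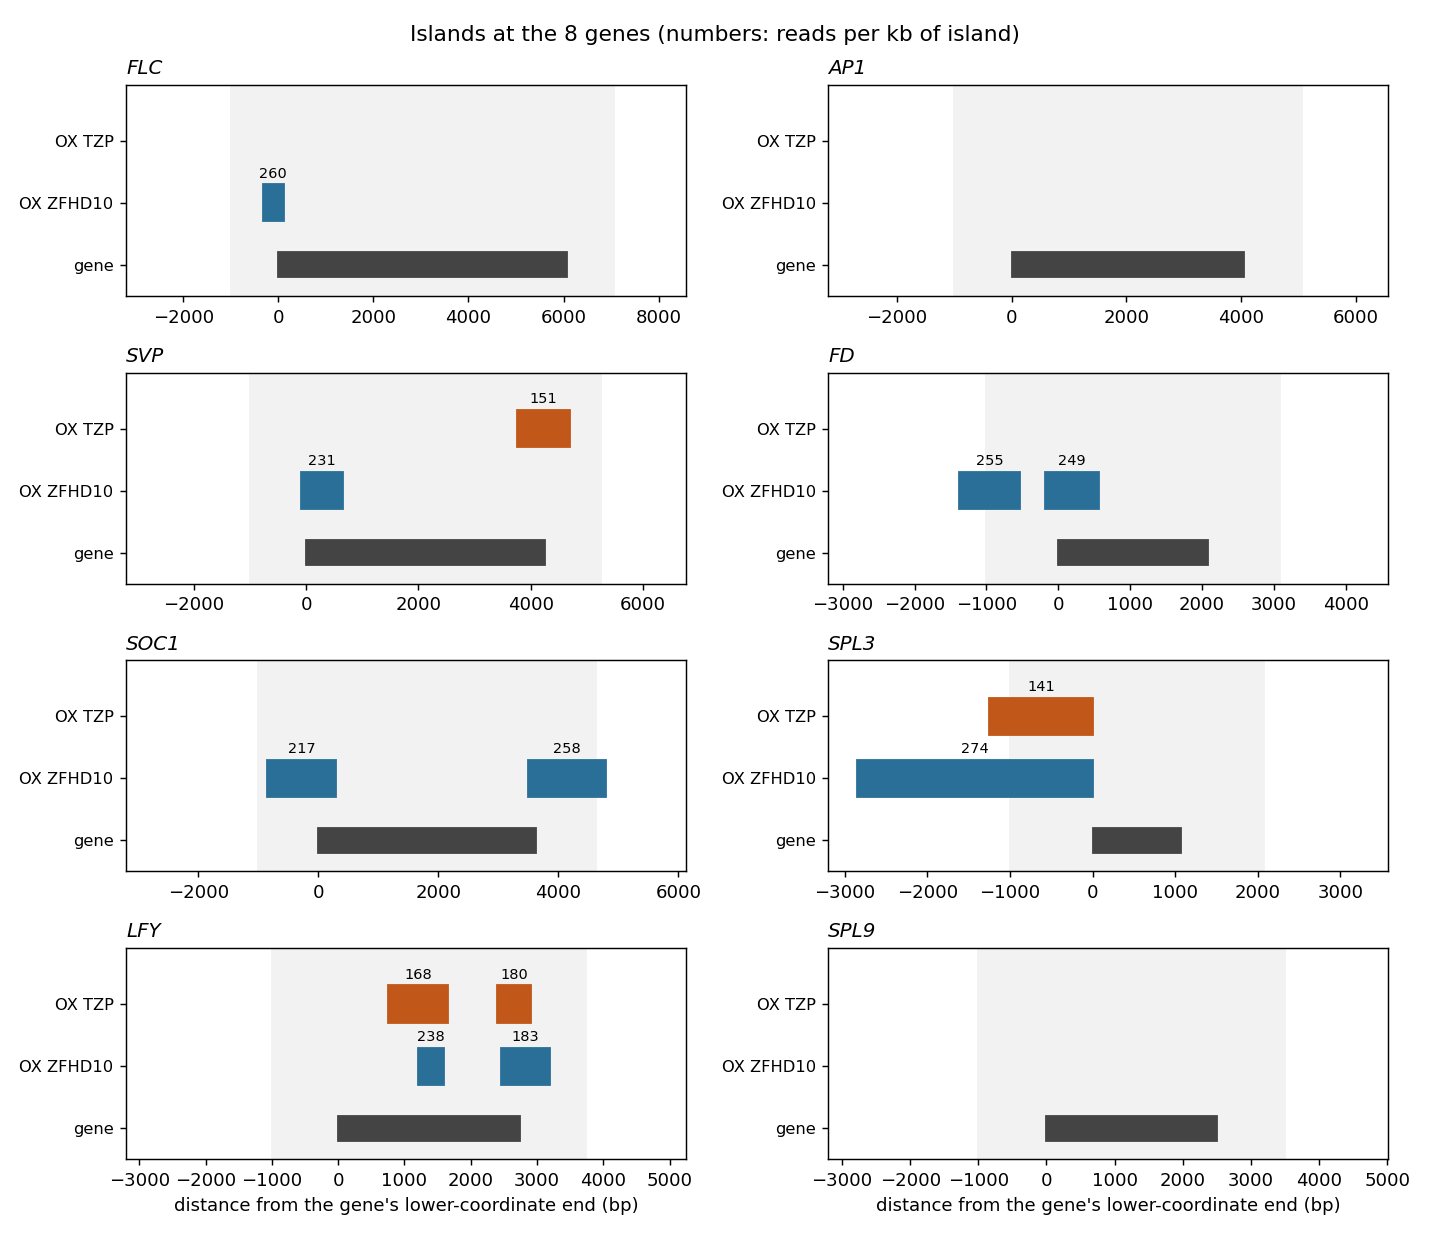
Islands of OX TZP (upper row, orange) and OX ZFHD10 (middle row, blue) at the 8 genes (lower row, dark bars). The horizontal axis is the distance in bp from the gene end with the lower coordinate, grey shading marks the gene and 1000 bp on either side, and the number over each island is its reads per kb. OX ZFHD10 islands sit at gene ends in FLC, SVP, SOC1, FD and SPL3, LFY has a pair of islands from each line in nearly the same places, and the AP1 and SPL9 windows are empty.

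The map of islands shows that most OX ZFHD10 islands lay at the ends of the genes. Of the 9 OX ZFHD10 islands, 6 crossed one gene end, 2 lay wholly outside the gene and 1 wholly inside. Over all pairs of an OX ZFHD10 island and a protein-coding gene these shares were 65.7%, 27.7% and 4.18%. Of the 4 OX TZP islands, 2 crossed a gene end, 1 lay inside and 1 outside, where all pairs gave 40.3%, 24.5% and 33.6%. No island of either line covered a whole gene, a placement found in 1.62% of all OX TZP pairs and 2.42% of all OX ZFHD10 pairs. The islands of neither line covered as much as 50% of any of the 8 gene bodies, a cover reached by 8.14% of all genes in OX TZP, and by 7.32% in OX ZFHD10. Whole or 50% cover is harder to reach in a longer gene, and 7 of the 8 are longer than the median protein-coding gene. The gene table used has no strand, so the ends are named by coordinate and not as promoter or terminator.

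FLC (AT5G10140, chromosome 5 positions 3173382 to 3179448; gene positions are from TAIR10.1 and island positions from TAIR10) encodes the MADS repressor whose silencing by cold underlies vernalization. It had no OX TZP island. Its OX ZFHD10 island, at 3173051 to 3173500, was 450 bp long and contained 117 reads, a density of 260 reads per kb (215 to 312). This density ranked 8205 of 16122 and was 0.992 times the list median. The island reached 119 bp into the gene at its lower-coordinate end and covered 1.96% of it. FLC lies wholly within an annotated long noncoding RNA gene, AT5G01675 (3173371 to 3179600), which the same island also touched. The nearest OX TZP island, at 3170301 to 3170800 with 180 reads per kb, ended 2581 bp away from the gene, and 37.9% of all genes had none nearer.

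SVP (AT2G22540, chromosome 2 positions 9579647 to 9583901) encodes the MADS partner of FLC in repression. Its OX TZP island, at 9583401 to 9584350, contained 143 reads, a density of 151 reads per kb (127 to 177), rank 9380 of 11675 and 0.924 times the list median. Its OX ZFHD10 island, at 9579551 to 9580300, contained 173 reads, a density of 231 reads per kb (198 to 268), rank 11749 of 16122 and 0.880 times the list median. The islands therefore lay at opposite ends of SVP, 3100 bp apart. The OX TZP island covered 11.8% of the gene at the higher-coordinate end, and the OX ZFHD10 island 15.4% at the lower-coordinate end. Of the 3 genes with an island of each line, SVP was the one where the islands did not overlap.

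SOC1 (AT2G45660, listed in the gene table as AGL20, chromosome 2 positions 18807505 to 18811125) encodes the MADS factor on which the photoperiod, cold and age routes meet. It had an OX ZFHD10 island at each end and no OX TZP island within 1000 bp. The island at the lower-coordinate end, 18806651 to 18807800, contained 249 reads, a density of 217 reads per kb (190 to 245), rank 13238 of 16122. The island at the higher-coordinate end, 18811001 to 18812300, contained 335 reads, a density of 258 reads per kb (231 to 287), rank 8526. The interval of the first lay below the list median of 262, and that of the second included it. Both lay mostly outside the gene, with 25.7% and 9.62% of their length inside, so that they covered 11.6% of SOC1. The nearest OX TZP island, at 18812801 to 18814600 with 327 reads, or 182 reads per kb, began 1675 bp beyond the gene, outside the 1000 bp limit.

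LFY (AT5G61850, chromosome 5 positions 24844248 to 24846989) encodes the plant-specific transcription factor that gives a meristem its floral fate, and was the one gene with more than 1 island of each line. Inside the gene, OX TZP had an island at 24845001 to 24845900 that contained 151 reads, a density of 168 reads per kb (142 to 197). OX ZFHD10 had one at 24845451 to 24845850 that contained 95 reads, a density of 238 (192 to 290). The OX ZFHD10 island lay wholly within the OX TZP island and made up 44.4% of its length. At the higher-coordinate end, OX TZP had an island at 24846651 to 24847150 that contained 90 reads, a density of 180 reads per kb (145 to 221). The OX ZFHD10 island there, at 24846701 to 24847450, contained 137 reads, a density of 183 (153 to 216). These last islands shared 450 bp, which was 90% of the OX TZP island and 60.0% of the OX ZFHD10 island.

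Of the islands at LFY, the intervals of both OX TZP islands and of the OX ZFHD10 island inside the gene included their list medians of 163 and 262 reads per kb, and that of the OX ZFHD10 island at the gene end lay below its median. The OX TZP islands ranked 4538 and 2276 of 11675, at 1.03 and 1.11 times the list median. The other 2 OX TZP islands at the 8 genes lay below that median. The OX ZFHD10 islands ranked 10900 and 15744 of 16122, at 0.906 and 0.697 times the median, and the second was the least dense of all islands at the 8 genes relative to its list. It also touched the neighbouring gene AT5G61865. OX TZP islands covered 45.2% of LFY and OX ZFHD10 islands 25.1%. LFY lay in an island-rich stretch, with 7 OX TZP islands and 7 OX ZFHD10 islands within 10000 bp of the gene, against medians of 2 and 4 over all genes. As many or fewer islands were found around 99.4% of genes in OX TZP and 96.5% in OX ZFHD10.

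AP1 (AT1G69120, chromosome 1 positions 25982294 to 25986349) encodes the MADS factor that fixes floral fate downstream of LFY and FT with FD. It had no island of either line. The nearest OX TZP island, at 25989201 to 25989950 with 136 reads, or 181 reads per kb, began 2851 bp beyond the gene, and 36.1% of all genes had none nearer. The nearest OX ZFHD10 island, at 25996701 to 25998500, began 10351 bp away, a distance matched or passed by 6.29% of all genes. No OX ZFHD10 island thus lay within 10000 bp of AP1, where the median gene had 4.

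FD (AT4G35900, chromosome 4 positions 17004382 to 17006462) encodes the bZIP factor through which FT acts in the shoot apex. Its OX ZFHD10 islands were both on the lower-coordinate side. One crossed the gene end at 17004201 to 17004950, contained 187 reads at a density of 249 reads per kb (215 to 288), and covered 27.3% of the gene, the highest OX ZFHD10 share among the 8. The other, at 17003001 to 17003850, ended 531 bp short of the gene and contained 217 reads at a density of 255 reads per kb (222 to 292). They ranked 9475 and 8806 of 16122, at 0.951 and 0.974 times the list median, and their intervals overlapped. FD was the reverse of AP1 in its surroundings: no OX TZP island lay within 10000 bp, the nearest beginning 10088 bp away, which 10% of all genes matched or passed, while 5 OX ZFHD10 islands did.

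SPL3 (AT2G33810, chromosome 2 positions 14305001 to 14306072) encodes a small SPL factor under miR156 control. Islands of both lines ended at position 14305000, the base next to the gene, and neither entered it. The OX TZP island, from 14303751, contained 176 reads, a density of 141 reads per kb (121 to 163), rank 11152 of 11675, which was the lowest density of the 4 OX TZP islands at the 8 genes. The OX ZFHD10 island, from 14302151, contained 780 reads, a density of 274 reads per kb (255 to 294), rank 6900 of 16122. It was the only one of the 9 OX ZFHD10 islands at or above its list median (1.04 times). At 2850 bp it was the longest island at the 8 genes and ranked 536 of 16122 in length. The whole OX TZP island lay within it and took up 43.9% of its length. The OX ZFHD10 island also reached the neighbouring gene EMB3113 (AT2G33800), and both islands covered the long noncoding RNA gene AT2G08630 (14303896 to 14304224), so these islands cannot be assigned to SPL3 alone. The common end also falls on the 50 bp grid on which the islands were called.

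SPL9 (AT2G42200, chromosome 2 positions 17587169 to 17589671) encodes a longer miR156-controlled SPL factor, and its annotated gene holds MIR156j (17589020 to 17589087). It had no island of either line. The nearest OX ZFHD10 island, at 17582501 to 17583000 with 143 reads, or 286 reads per kb, ended 4168 bp away, a distance matched or passed by 15.7% of all genes. The nearest OX TZP island, at 17599351 to 17600150 with 132 reads, or 165 reads per kb, began 9679 bp away, which 10.8% of all genes matched or passed.

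**Figure D2:**
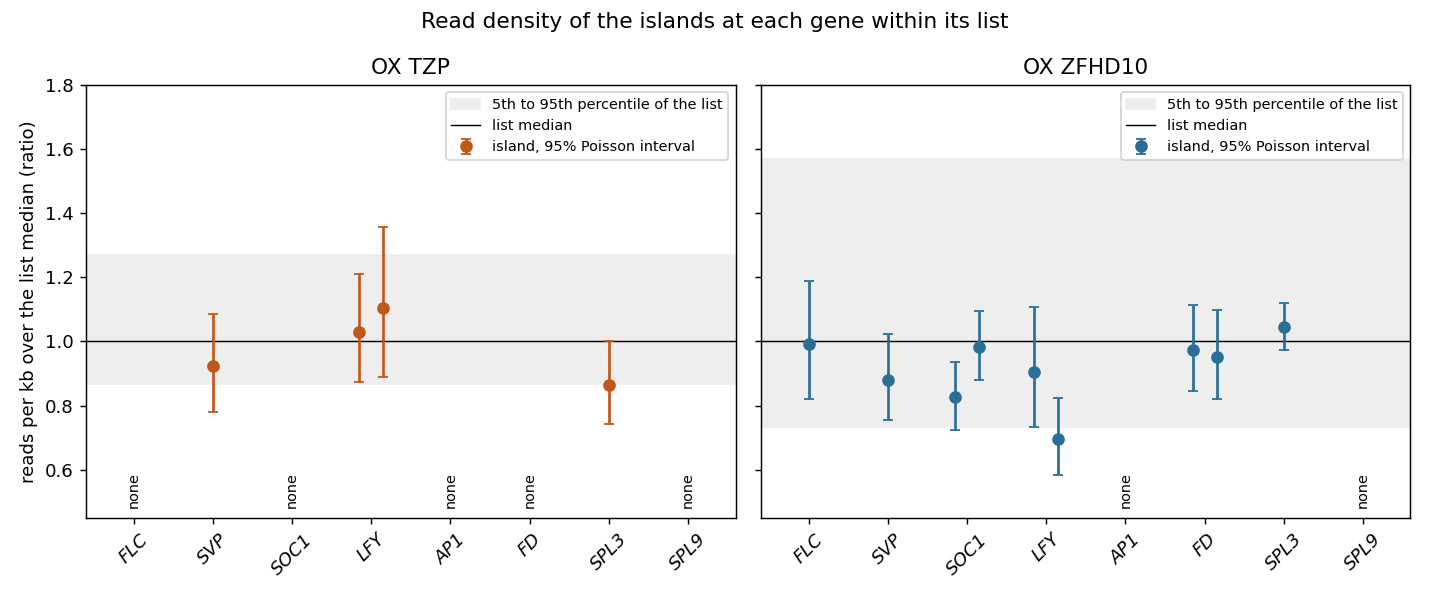
Read density of every island at the 8 genes, as reads per kb divided by the median of its list, in OX TZP (left) and OX ZFHD10 (right). Bars are 95% Poisson intervals, grey shading spans the 5th to the 95th percentile of the list, and "none" marks genes without an island. OX TZP values run between 0.865 and 1.11 and OX ZFHD10 values between 0.697 and 1.04, so no island rises above the shading. The higher-coordinate LFY island of OX ZFHD10 (0.697) falls below the shading, and the SPL3 island of OX TZP (0.865) lies at its lower edge.

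As the plot of density by gene shows, only 1 of the 9 OX ZFHD10 islands at these genes, that of SPL3, lay above its list median. In OX TZP the islands of SVP and SPL3 stood low in the list, at ranks of 80.3% and 95.5%, and those of LFY above its median. The OX TZP islands ran between 141 and 180 reads per kb, where the 5th and 95th percentiles of the list were 141 and 207. In OX ZFHD10 they ran between 183 and 274, where the list gave 192 and 411. An island at or above the list median was present at 1 of 8 genes in OX TZP (12.5%, against 25.3% of all genes) and at 1 of 8 in OX ZFHD10 (12.5%, against 39.9%). An island at or above the 95th percentile was present at 0 of 8 in each line, where 2.32% and 4.75% of all genes had one. Of the 4 OX TZP islands, 2 were at or above the list median and 2 below it, and all 4 intervals included it. The intervals of 7 of the 9 OX ZFHD10 islands included the list median, and those of the lower-coordinate SOC1 island and the higher-coordinate LFY island lay below it.

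**Figure D3:**
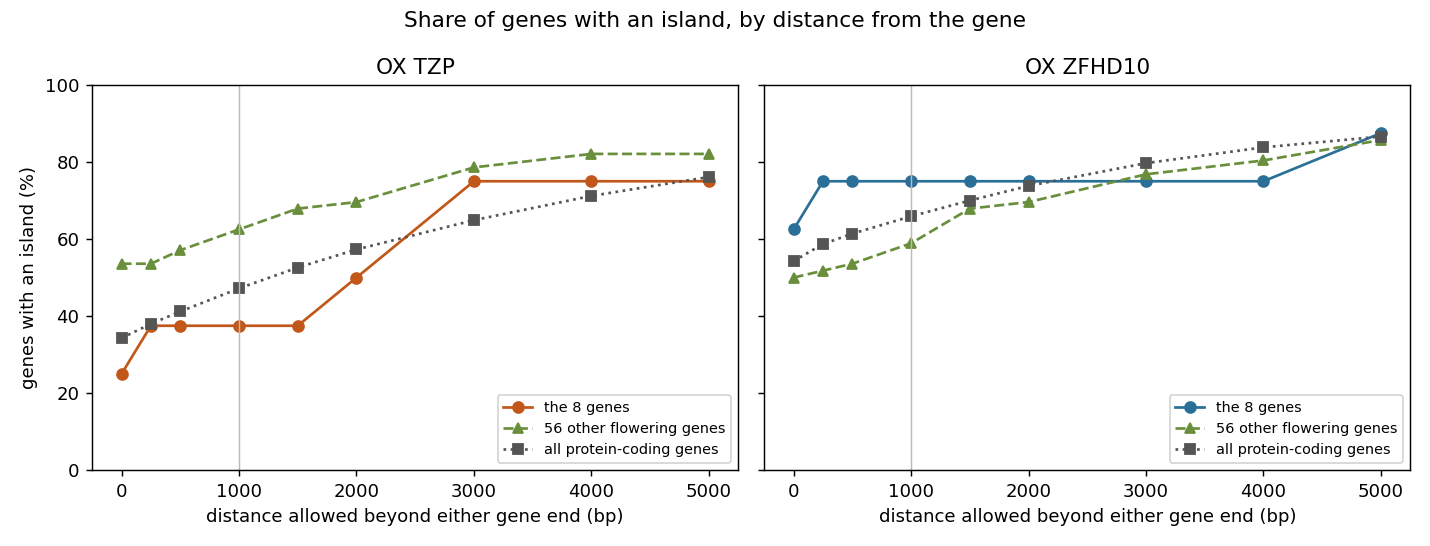
Percent of genes with an island against the distance allowed beyond either gene end in bp, for OX TZP (left) and OX ZFHD10 (right). Circles are the 8 genes, triangles 56 other flowering genes, squares all protein-coding genes, and the vertical line marks 1000 bp. In OX ZFHD10 the share of the 8 genes stays at 75.0% between 250 and 4000 bp, and in OX TZP it reaches 75.0% at 3000 bp.

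The curve of shares by distance places the choice of 1000 bp. In OX ZFHD10, 5 of 8 genes were touched in the gene body (54.3% of all genes) and SPL3 joined them within 250 bp. No further gene was added up to 4000 bp, where 83.8% of all genes had an island. In OX TZP 2 of 8 gene bodies were touched (34.3% of all genes). SPL3 again joined within 250 bp, SOC1 by 2000 bp and both FLC and AP1 by 3000 bp, where 6 of 8 stood against 64.9% of all genes.

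The other 56 flowering genes examined, listed by role, had an OX TZP island in 35 cases (62.5%) and an OX ZFHD10 island in 33 (58.9%), beside the 47.2% and 65.9% of all genes. Islands of each line were found at 21 (37.5%), and 9 had none (16.1%), beside 36.7% and 23.5% of all genes. No test was made of these shares. Most of the 56 are also longer than the median protein-coding gene (2078 bp), which gives an island more room to overlap them. FLM and MAF2 to MAF5, MADS factors of the same clade as FLC, had islands of each line in all 5 cases, against 36.7% of all genes. FLC had an OX ZFHD10 island alone, as did 29.2% of all genes. MAF2, MAF3, MAF4 and MAF5 are neighbours, however, and shared 6 OX TZP islands of 138 to 165 reads per kb and 6 OX ZFHD10 islands of 244 to 319 over their whole cluster.

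Genes that regulate FLC carried OX TZP islands in 7 of 13 cases (53.8%, against 47.2% of all genes) and OX ZFHD10 islands in 11 (84.6%, against 65.9%). FRI, FLD, FPA, FY, LD and VRN1 had islands of each line, and VIN3, whose product starts the cold silencing of FLC, had none. At FRI, density was 147 reads per kb (124 to 174) in OX TZP and 490 (454 to 529) in OX ZFHD10. The latter ranked 199 of 16122, the densest of that line among the flowering genes listed. That island (267851 to 269200) lay mostly outside FRI, whose lower-coordinate end is at 268901. At LD, of the autonomous pathway, densities were 146 (125 to 170) in OX TZP and 402 (373 to 434) in OX ZFHD10. The latter island (1121951 to 1123650) also lay mostly outside its gene, whose lower-coordinate end is at 1123475. Other genes that these islands may touch were not examined.

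**Figure D4:**
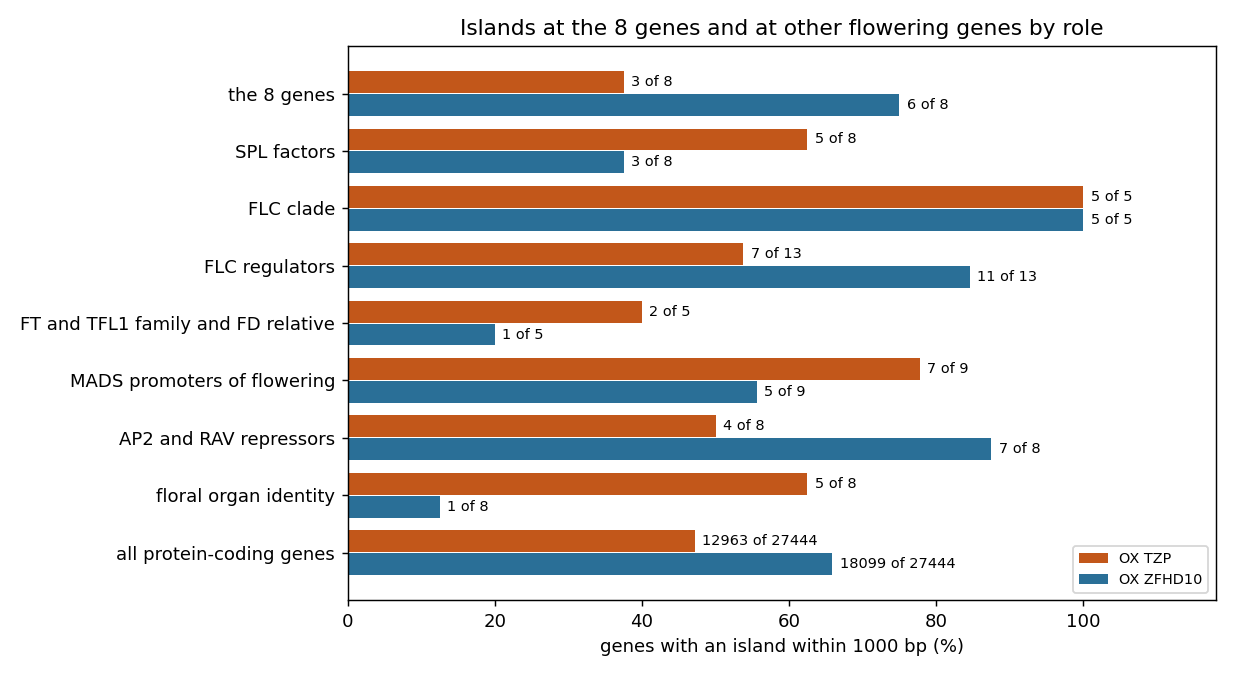
Percent of genes with an island within 1000 bp for the 8 genes, for 7 groups of other flowering genes and for all protein-coding genes, with OX TZP above OX ZFHD10 in each pair of bars and the number of genes beside each bar. Among floral organ identity genes 5 of 8 have an OX TZP island while 1 of 8 has an OX ZFHD10 island; for AP2 and RAV repressors the numbers are 4 of 8 and 7 of 8.

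The bars by role set both lines side by side; among all genes 47.2% had an OX TZP island and 65.9% an OX ZFHD10 island, and with 5 to 13 genes a group no departure from them was tested. Among AP2 and RAV repressors of flowering, 4 of 8 had an OX TZP island (50%) and 7 of 8 an OX ZFHD10 island (87.5%), with TOE1, TOE2, TEM1 and TEM2 holding islands of each line. TOE2 had the densest OX TZP island of the listed genes, with 220 reads per kb (170 to 280), rank 329 of 11675. That island was small, 300 bp with 66 reads, where the list had medians of 900 bp and 147 reads and a minimum of 47 reads. The OX ZFHD10 island of TOE2 had 277 reads per kb (225 to 338). TEM2 had 190 reads per kb (163 to 221) in OX TZP and 418 (403 to 433) in OX ZFHD10. OX ZFHD10 islands covered the whole bodies of TEM1, TEM2 and AP2, which were picked out after their values were seen. Those at TEM1 and TEM2 were 10350 and 7200 bp long and reached well beyond these genes. In OX ZFHD10, 3 of the 56 other flowering genes were covered by at least 50%, against 7.32% of all genes. Such cover is harder to reach in a longer gene, and most of the 56 are longer than the median protein-coding gene.

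Among MADS promoters of flowering, 7 of 9 genes had an OX TZP island (77.8%, against 47.2% of all genes) and 5 of 9 an OX ZFHD10 island (55.6%, against 65.9%), with AGL42, AGL71 and AGL17 holding islands of each line. All 9 are longer than the median protein-coding gene (2078 bp). At AGL42, a relative of SOC1, density was 210 reads per kb (172 to 254) in OX TZP, rank 484, beside 386 (354 to 419) in OX ZFHD10. The group of floral organ identity genes, which also holds UFO, a gene for an F-box partner of LFY, had an OX TZP island in 5 of 8 cases (62.5%) and an OX ZFHD10 island in 1 of 8 (12.5%), PI, which had islands of each line. Of the 8 other SPL genes listed, which are not the whole family, 5 had an OX TZP island (62.5%) and 3 an OX ZFHD10 island (37.5%), with SPL6 and SPL10 holding islands of each line. SPL6 had 202 reads per kb (167 to 241) in OX TZP and 223 (201 to 247) in OX ZFHD10. In the FT and TFL1 family with the FD relative FDP, 2 of 5 had an OX TZP island (40%) and 1 of 5 an OX ZFHD10 island (20%). FT, the mobile signal that FD binds, had 151 reads per kb (127 to 179) in OX TZP and no OX ZFHD10 island, the reverse of FD.

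**Figure D5:**
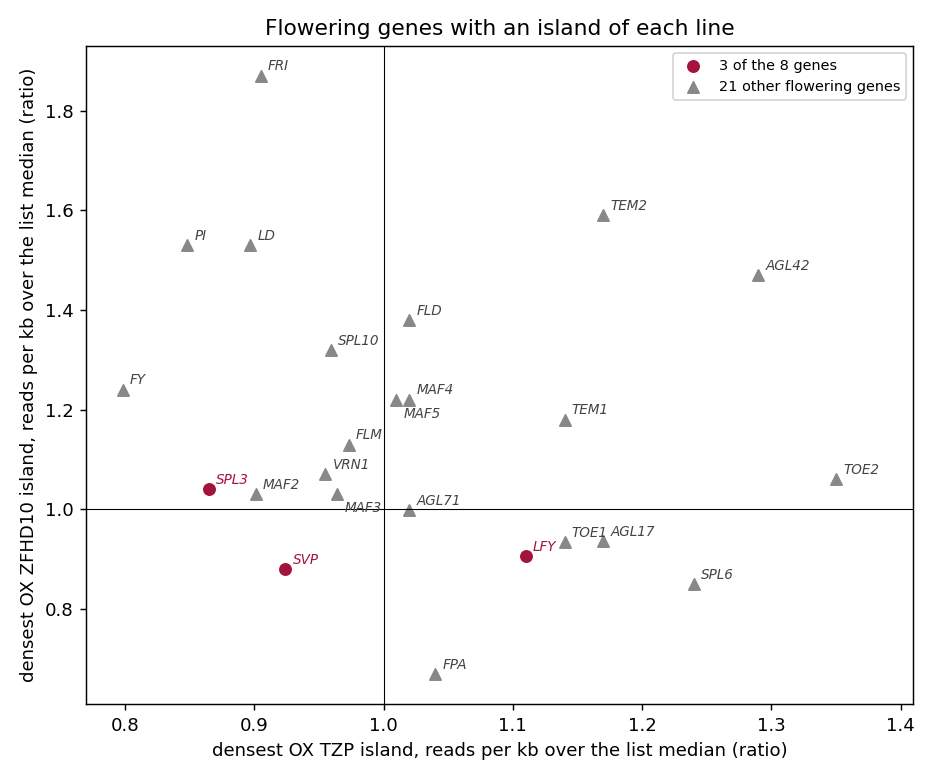
Densest OX TZP island (horizontal axis) against densest OX ZFHD10 island (vertical axis) at each flowering gene with an island of each line, both as reads per kb over the list median. Circles are SVP, LFY and SPL3, triangles the 21 other genes, and the lines mark the list medians. SVP lies below both medians, LFY above the OX TZP median alone and SPL3 above the OX ZFHD10 median alone.

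Likeness was measured over the 2 lists as the sum of absolute log2 differences in density over the list median, among the 21 other flowering genes with islands of each line. The gene most like SVP was MAF2 (sum 0.265), the gene most like LFY was TOE1 (0.0909), and the gene most like SPL3 was again MAF2 (0.0784). These sums carry counting error. In each pair the Poisson intervals of the genes overlapped in both lists, so the choice of nearest gene is loose. At LFY the densest islands of the lines lay 800 bp apart and did not overlap each other. As the plot of both densities shows, none of the 3 genes lay at or above both list medians, so that 0 of the 8 did, against 14.0% of all genes. Of the 56 other flowering genes, AGL42, TEM1, TEM2, TOE2, FLD, MAF4 and MAF5 did, where MAF4 and MAF5 were counted on the same OX ZFHD10 island. The 14.0% is a share of all genes, so it is to be set beside a share of the 56 and not of the 21. No test was made of this.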

How the data were processed

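An anti-GFP chromatin immunoprecipitation library of each genotype was sequenced in 75 bp single-end reads, per the labels' protocols. Tools listed without roles in the submitters' processing notes are SICER 1.1, Bowtie 0.12.7, cutadapt 1.5 and HOMER, with TAIR10 as build. The lists deposited by the authors hold counts, whole numbers of reads in each island without scaling for length or depth, and their names carry a 50 bp window, a 200 bp gap and a false discovery rate of 0.1. No label names the count column, which was read as such from its values. The control library and the treatment of duplicates are not given in the sources used here; a loose rate admits weak islands, and PCR copies are not independent molecules.

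Positions were counted from 1, organelle islands left out, and reads divided by island length (Python 3.11.15, pandas 2.3.3). Rank 1 is the densest nuclear island. Genes came from a TAIR10.1 table with no strand, exons or sequence, so motifs and promoters were not analysed here. Both assemblies share nuclear positions as far as checked: shifting OX ZFHD10 island midpoints by up to 3000 bp, the share inside genes was lowest within 50 bp of no shift on all 5 chromosomes. The overlap code was checked on simulated islands. All 8 genes were named with every island, and of the 56 others those with islands of each line, the 3 densest per line and the most alike gene; others named were chosen after their values were seen. Members and lists were chosen with earlier results of these data known.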

Additional observations from a re-analysis of the deposited data

How the results depend on the processing

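Counts of the 8 genes stayed within 1.5 times the main count for windows of 0, 500 and 2000 bp, and when at least 50% of an island had to lie in the window. Of these, 0 bp gave 2 genes in OX TZP and 5 in OX ZFHD10, beside 34.3% and 54.3% of all genes. At 2000 bp there were 4 and 6, beside 57.3% and 73.8%. Keeping islands with at least the median number of reads left 2 genes in OX TZP (LFY and SPL3), beside 29.0% of all genes. It left 3 in OX ZFHD10 (SOC1, FD and SPL3), beside 40.1%. Only 1 gene, SPL3, kept an island of each line, beside 15.7%. Keeping islands with at least the median reads per kb left 1 gene in OX TZP (LFY), beside 25.3% of all genes. It left 1 in OX ZFHD10 (SPL3), beside 39.9%, and 0 with each, beside 14.0%. Fewer islands were kept in both cases. The counts of the other flowering genes ran between 30 and 39 in OX TZP and between 28 and 39 in OX ZFHD10 over the windows. Ranked by reads in place of density, 5 of 9 densest islands moved beyond their counting interval. Rank by reads depends on length: the SPL3 island of OX ZFHD10 stood at 5.14% of the list by reads and 42.8% by density, and the denser LFY island of OX TZP at 93.7% and 19.5%. Among islands of at most 1000 bp, none of the 6 densest islands that short moved beyond it. No paired analysis was possible because each line had 1 library. Motifs were planned and could not be run without sequence. The islands at FLC and LFY and the OX TZP island at SVP held between 90 and 151 reads, so their rank within a list is loose. Ranks of the other islands carry counting error too.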
